A study of Mus musculus with 10 samples.

Results

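The core circadian clock genes were followed in whole-brain RNA from adult male mice, 5 that carried extra Glo1 on a bacterial artificial chromosome (Tg) and 5 wild-type littermates (WT). Glo1 encodes glyoxalase 1, an enzyme that clears methylglyoxal. The mice were on a C57Bl/6J background, were group housed and received no treatment, and each was measured on its own Affymetrix gene array. The labels do not name the transgene's promoter, the age beyond adult, the light cycle or the hour at which brains were taken. The members were chosen by name, as the probe set that the platform annotation assigns to one of 10 listed clock symbols alone. A probe set was found for 9 of the 10, each with a single one, out of 19938 genes with a value. Npas2 had no probe set of its own in the annotation used and was not analysed here.

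The mammalian clock is a loop of transcription. CLOCK and BMAL1, the product of Arntl, form its positive arm and bind E-box sequences to switch on the Per, Cry, Nr1d1, Nr1d2, Dbp and Tef genes. PER proteins then inhibit CLOCK and BMAL1, while the nuclear receptors NR1D1 and NR1D2 (REV-ERB) repress Arntl through ROR elements, and both sets are grouped here as the negative arm. DBP and TEF are output transcription factors that act on D-box sequences. Because of this wiring, Arntl transcripts peak in a phase opposite to Nr1d1 and Dbp, and Per2 transcripts peak after both. A shift in the hour of sampling therefore moves these transcripts in different directions.

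Promoter windows from RefSeq (assembly GRCm38.p6, 250 bases before to 50 after a start) were matched by symbol for 9 of the 10 listed genes, all but Per2, in 14 windows. Each window was searched on both strands for CACGTG (E-box), CACGTT (variant E-box), TTATGTAA or TTACGTAA (D-box) and TAGGTCA or TGGGTCA (ROR element). Among all 32851 windows of the table, these were found in 7.15%, 4.68%, 1.06% and 6.45%. The stretches below are shown because Per3 is the member whose 2 genotypes did not overlap, and Per1 and Tef are the members whose windows hold an E-box. They run 5′ to 3′ on the gene's strand and end at the base before the start, with matches in capitals. The Per3 stretch is chr4:151044666-151044915 on the minus strand and holds a D-box at -205 and at -158. The Per1 stretch is chr11:69098699-69098948 on the plus strand, with an E-box at -166. The Tef stretch is chr15:81802423-81802672 on the plus strand, with an E-box at -127.
Per3: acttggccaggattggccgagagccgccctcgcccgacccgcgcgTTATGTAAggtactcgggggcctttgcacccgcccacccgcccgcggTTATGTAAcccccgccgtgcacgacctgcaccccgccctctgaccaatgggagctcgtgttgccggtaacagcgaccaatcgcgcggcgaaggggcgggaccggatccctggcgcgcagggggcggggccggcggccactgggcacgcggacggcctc
Per1: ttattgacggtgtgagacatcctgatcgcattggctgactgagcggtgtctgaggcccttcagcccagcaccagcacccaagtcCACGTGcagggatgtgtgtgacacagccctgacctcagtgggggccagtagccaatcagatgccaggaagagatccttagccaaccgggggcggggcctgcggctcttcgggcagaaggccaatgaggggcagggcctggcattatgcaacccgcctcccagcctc
Tef: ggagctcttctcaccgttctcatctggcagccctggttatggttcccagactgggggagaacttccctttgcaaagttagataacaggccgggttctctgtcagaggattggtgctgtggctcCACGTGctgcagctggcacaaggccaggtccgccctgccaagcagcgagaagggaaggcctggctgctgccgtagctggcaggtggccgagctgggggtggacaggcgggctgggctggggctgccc
A second Tef window held an E-box at -138, and the Nr1d1 window held a variant E-box at -28. One of the Arntl windows held a ROR element whose first base is base 31 counted from the start. The windows of Clock, Npas2, Nr1d2 and Dbp held no match to these letters, which says nothing about sites elsewhere in those genes.

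The arrays were first checked for tissue content. Glo1 read 12.08 ± 0.13 log2 units in Tg and 10.57 ± 0.19 in WT (SD, n = 5 each), and the genotypes did not overlap. Mean marker levels were 12.27 to 12.40 for neurons, 9.99 to 10.15 for astrocytes and 11.58 to 11.65 for oligodendrocytes, all above the array medians of 7.95 to 8.05. The mean of 10 cerebellar markers was 8.41 on WT replicate 2, 10.93 to 11.03 on the other 4 WT arrays and 10.75 to 10.86 in Tg, so that apart from WT replicate 2 every Tg array read lower. The mean of 6 striatal markers also separated the genotypes, at 10.30 to 10.37 in Tg and 10.37 to 10.57 in WT without overlap. The mean of 6 olfactory bulb markers was highest on Tg replicates 3 and 4 (8.87 and 8.78), against 8.07 to 8.44 elsewhere. The mean of 5 pituitary markers was 9.70 on Tg replicate 2 and 10.08 on WT replicate 2, against 6.31 to 6.66 elsewhere. In tissue of this kind, fewer cells of a type and less RNA per cell cannot be told apart.

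The main comparison asked whether clock genes differed between Tg and WT brain. None of the 9 measured members passed the limma test after Benjamini-Hochberg adjustment over all 28944 probe sets, where 10 probe sets passed in all (0.0345%), 8 of them lower in Tg (0.0276%). At an unadjusted limma p under 0.05 the count was 1 of 9, Per3, which was lower, against 1.23% of all probe sets lower, 0.985% higher and 2.21% in either direction. The means of 7 members were lower in Tg, and those of Clock and Arntl were higher, beside 52.2% of all probe sets with a lower mean. The median difference of the 9 members was -0.05 log2 units, and that of all probe sets was -0.0031. Every limma adjusted p of a member rounded to 0.9998.

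**Figure D1:**
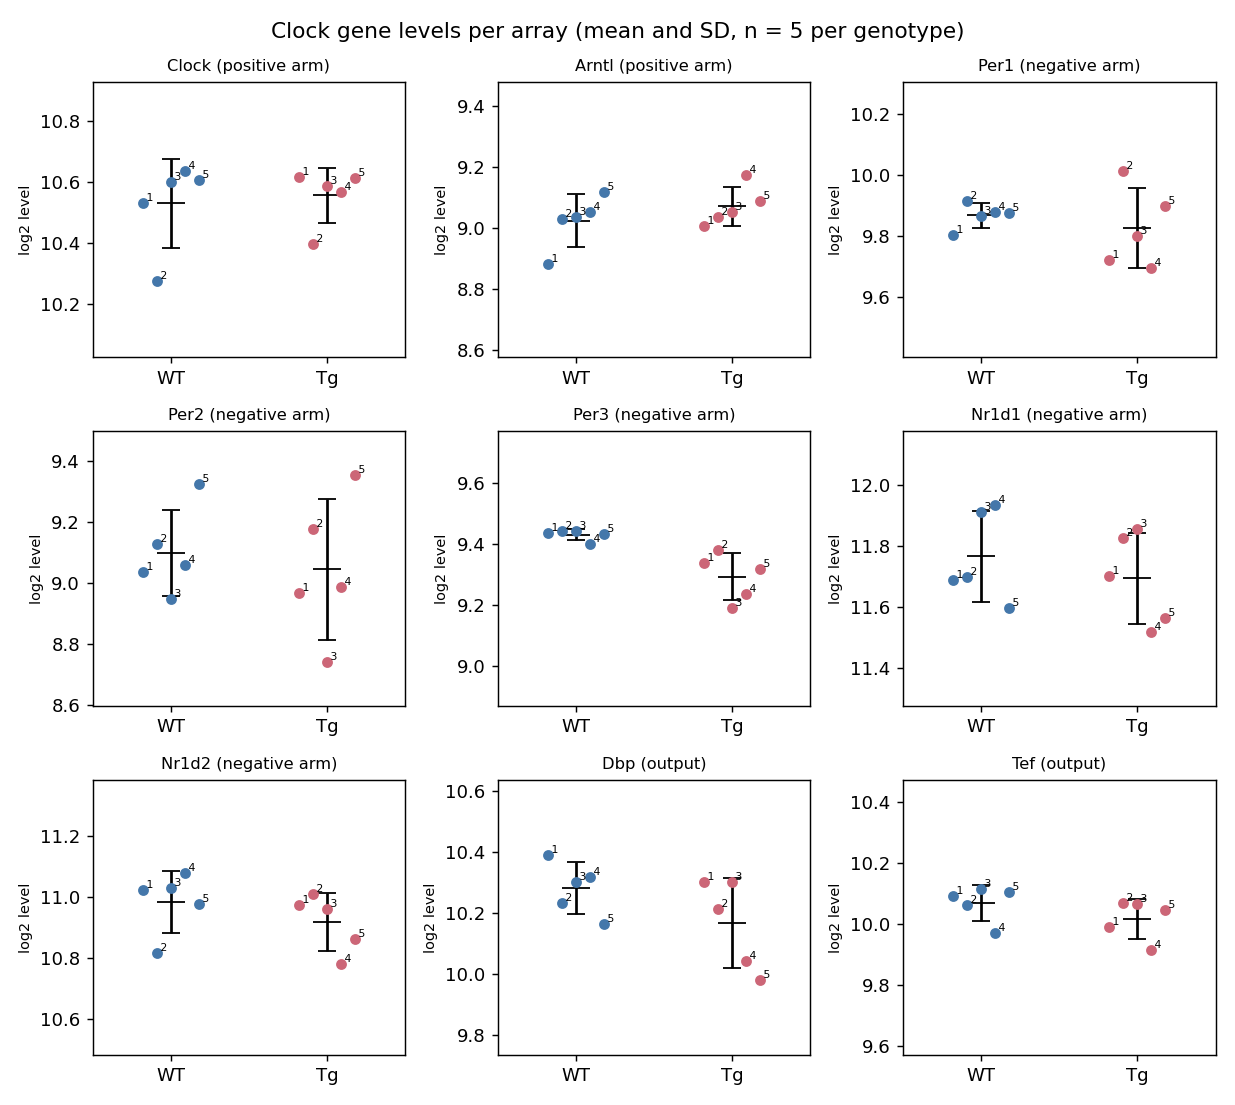
Log2 level of the 9 measured clock genes in each brain, WT in blue and Tg in red; numbers give the replicate, the line the mean and the bars the SD (n = 5 per genotype), and every panel spans 0.9 log2 units. Per3 is the panel in which the genotypes do not overlap, and Dbp and Nr1d1 are low in Tg replicates 4 and 5 and in WT replicate 5.

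Positive arm. Arntl, whose product BMAL1 drives the loop, read 9.01, 9.04, 9.05, 9.17 and 9.09 log2 units in Tg replicates 1 to 5. In WT replicates 1 to 5 it read 8.88, 9.03, 9.04, 9.05 and 9.12. The genotypes overlapped, and the extremes were WT replicate 1 at the low end and Tg replicate 4 at the high end. The difference was 0.05 (95% interval -0.07 to 0.16, two-sided exact permutation p = 0.381), and it was 0.012 without WT replicate 1 and 0.022 without Tg replicate 4. Clock, the partner of BMAL1, read 10.62, 10.40, 10.59, 10.57 and 10.61 in Tg. Its WT values were 10.53, 10.28, 10.60, 10.63 and 10.61. The lowest value in each genotype belonged to replicate 2, the arrays with bright pituitary markers, of which WT replicate 2 also had dim cerebellar markers. The difference was 0.03 (-0.13 to 0.18, exact permutation p = 0.706), and it was -0.04 without WT replicate 2 and -0.014 with the cerebellar marker mean as a covariate. Averaged over both genes, the positive arm read 9.81 ± 0.059 in Tg and 9.78 ± 0.092 in WT (SD, n = 5 each), a difference below the SD of either group. No test was made on averages over members.

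Negative arm, Per genes. Per3 encodes a PER protein with a lesser part in the loop than PER1 and PER2. It read 9.34, 9.38, 9.19, 9.24 and 9.32 in Tg replicates 1 to 5, and 9.43, 9.44, 9.44, 9.40 and 9.43 in WT. Every Tg array read lower than every WT array, and the WT values were close together (SD 0.018, against 0.077 in Tg). The difference was -0.14 (SE 0.044, 95% interval -0.23 to -0.04), a Tg level of 90.9% of WT. The two-sided exact permutation p was 0.00794, the smallest that 5 against 5 arrays can give, while the limma adjusted p was 0.9998. Among all probe sets, 0.311% had all Tg values below all WT values. The striatal marker mean was lower in all 5 Tg arrays too, and the cerebellar marker mean was lower in all 5 than in the 4 WT arrays other than replicate 2. Per3 differed by -0.14 with the cerebellar mean as a covariate and by -0.13 without WT replicate 2, and the part of the striatal and olfactory tissue in the result was not tested.

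Per2, which inhibits CLOCK and BMAL1 and is itself strongly rhythmic, read 8.97, 9.18, 8.74, 8.99 and 9.35 in Tg. In WT it read 9.04, 9.13, 8.95, 9.06 and 9.33. Both genotypes had their highest value in replicate 5 and their lowest in replicate 3. The spread within Tg, 0.23 (SD), was larger than the difference of -0.05 (-0.29 to 0.18, exact permutation p = 0.675). That difference was 0.02 without Tg replicate 3 and 0.0022 without WT replicate 5. Per1, a PER gene that also responds to light and to glucocorticoids, ranged from 9.69 to 10.01 in Tg and from 9.80 to 9.91 in WT. Its difference was -0.04 (-0.17 to 0.09, exact permutation p = 0.508), and it ranged from -0.088 without Tg replicate 2 to -0.0086 without Tg replicate 4 when single arrays were left out.

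Negative arm, REV-ERB genes. Nr1d1 read 11.70, 11.82, 11.86, 11.52 and 11.57 in Tg, and 11.69, 11.70, 11.91, 11.93 and 11.60 in WT. The lowest 3 of these 10 values came from Tg replicates 4 and 5 and WT replicate 5, so the genotypes overlapped over nearly their whole range. The difference was -0.07 (-0.26 to 0.11, exact permutation p = 0.468). With single arrays left out it ranged from -0.11, without WT replicate 5, to -0.03, without Tg replicate 4. Nr1d2, its paralog with the same repressor role, ranged from 10.78 to 11.01 in Tg and from 10.81 to 11.08 in WT. Its difference was -0.07 (-0.20 to 0.07, exact permutation p = 0.270), with a range from -0.11 without WT replicate 2 to -0.03 without Tg replicate 4. The negative arm as a whole read 10.16 ± 0.090 in Tg and 10.23 ± 0.031 in WT (SD, n = 5 each), lower by 0.07.

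Output genes. Dbp, a D-box factor and among the most strongly rhythmic transcripts known, read 10.30, 10.21, 10.30, 10.04 and 9.98 in Tg replicates 1 to 5. Its WT values were 10.39, 10.23, 10.30, 10.32 and 10.17. The low values were Tg replicates 4 and 5 and WT replicate 5, while Tg replicates 1 to 3 lay within the WT range. The difference was -0.11 (-0.27 to 0.04, exact permutation p = 0.190), and -0.07 without Tg replicate 5. Tef, a second D-box factor, ranged from 9.92 to 10.07 in Tg and from 9.97 to 10.12 in WT, with a difference of -0.05 (-0.15 to 0.05, exact permutation p = 0.222), and -0.03 without Tg replicate 4. The output pair averaged 10.09 ± 0.090 in Tg and 10.18 ± 0.047 in WT (SD, n = 5 each), lower by 0.08.

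The other genes of the pathway were read from a list of 18, of which 16 had a value. By limma, 0 passed over all probe sets and 0 had an unadjusted p under 0.05. Means were lower in Tg for 13 and higher for 3, with a median of -0.04, beside 52.2% of all probe sets with a lower mean. The lowest p belonged to Arntl2, a paralog of Arntl, at -0.11 (-0.23 to 0.01). Cry1 and Cry2, the partners of the PER proteins, differed by -0.07 and -0.05. Ciart, a repressor of CLOCK and BMAL1 that was chosen after its values were seen, differed by -0.21 with a wide interval (-0.47 to 0.04). That value is from the brighter of its 2 probe sets. Of 13 measured rhythmic output genes, 0 passed, 0 had an unadjusted p under 0.05, and the median was -0.04. The means of 11 of these were lower in Tg and those of 2 were higher. Cirbp, a cold-inducible RNA-binding protein, had their lowest p, with a difference of -0.22 (-0.53 to 0.09). Of 10 genes of the suprachiasmatic nucleus, the brain's master clock, 0 passed, 0 had an unadjusted p under 0.05, and the median was 0.07. The means of 3 of these were lower in Tg and those of 7 were higher. Their lowest p belonged to the neuropeptide gene Nms, at 0.13 (-0.01 to 0.27). That nucleus is a very small part of a whole brain, so these arrays read mainly the clocks of other regions.

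**Figure D2:**
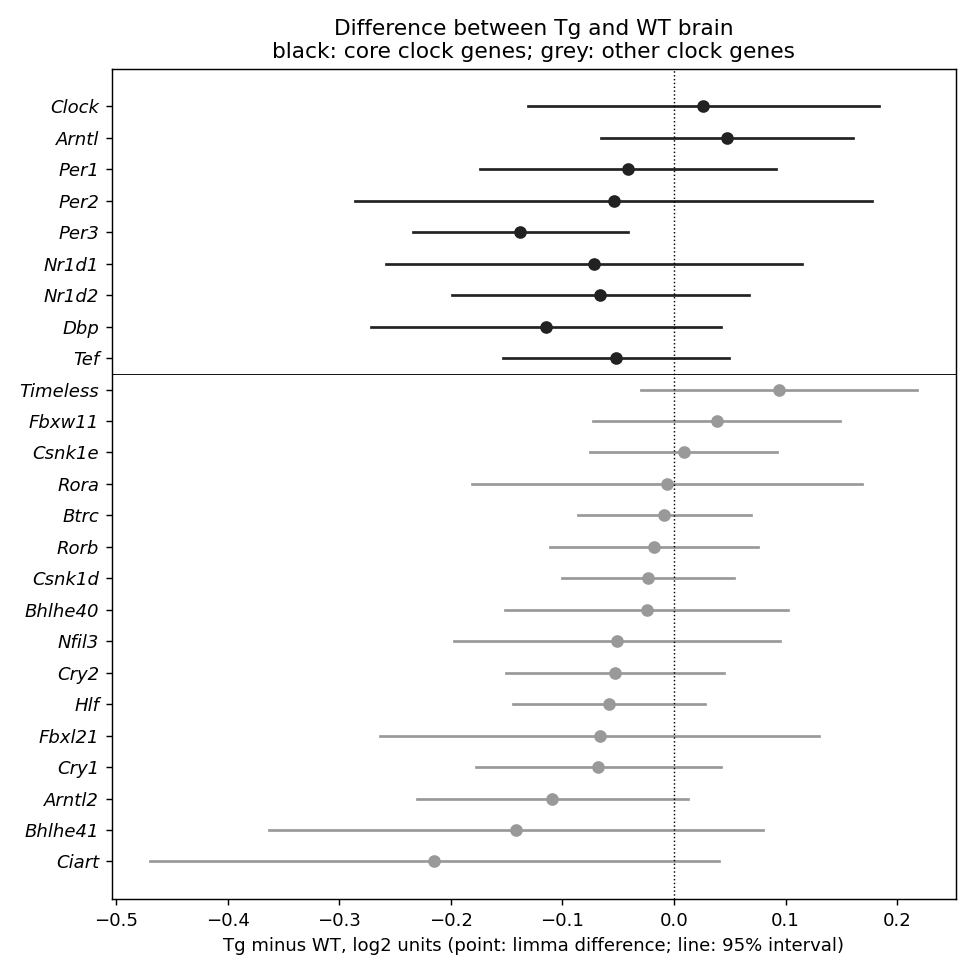
Tg minus WT difference (log2 units) of the 9 measured core clock genes in black and of 16 other clock genes in grey; points are limma differences and lines are 95% intervals (5 arrays per genotype). The interval of Per3 leaves out 0, and those of the other 24 genes include it.

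The pattern over arrays was examined next, because a difference in the hour of sampling would move Arntl against Nr1d1 and Dbp within each genotype. Arntl and Dbp had the most negative correlation of all 36 member pairs over the 10 arrays (Pearson's r = -0.76, permutation p = 0.00783, adjusted over the 36 pairs 0.213). Spearman's rho was -0.64 (permutation p = 0.0544, adjusted 0.490). As deviations from the genotype means r was -0.73. Without the arrays farthest from the median of Arntl, Tg replicate 4 and WT replicate 1, r was -0.62 (exact permutation p = 0.114). In that smaller set rho was -0.33 (exact permutation p = 0.428), so the relation was weaker by ranks. Arntl and Nr1d1 had r = -0.35 (permutation p = 0.333, adjusted 0.572; rho = -0.36, permutation p = 0.314, adjusted 0.756), and -0.29 as deviations from the genotype means. Without Tg replicate 4 and WT replicate 1, r was -0.48 (exact permutation p = 0.237) and rho was -0.24 (exact permutation p = 0.582). Each genotype holds 5 arrays, too few for a correlation of its own.

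Dbp and Nr1d1 were high and low on similar arrays (r = 0.70, permutation p = 0.0236, adjusted 0.213; rho = 0.65, permutation p = 0.0486, adjusted 0.490). That relation rested on Tg replicates 4 and 5. Without them r was 0.34 (exact permutation p = 0.410) and rho was 0.33 (exact permutation p = 0.428). Nr1d1 and Nr1d2 had the highest r of the 36 pairs, 0.73 (permutation p = 0.0171, adjusted 0.213; rho = 0.68, permutation p = 0.0342, adjusted 0.490). Without WT replicates 3 and 4, r was 0.59 (exact permutation p = 0.126) and rho was 0.38 (exact permutation p = 0.360). Dbp and Per2 had r = -0.56 (permutation p = 0.0949, adjusted 0.495; rho = -0.55, permutation p = 0.106, adjusted 0.638). Without Tg replicates 4 and 5, r was -0.64 (exact permutation p = 0.0842) and rho was -0.62 (exact permutation p = 0.115). Over all 36 pairs, r was negative in 15 and positive in 21. By arm, r was negative in 4 of 4 pairs of a positive arm gene with an output gene and in 7 of 10 pairs of the positive with the negative arm. It was positive in 8 of 10 pairs within the negative arm and in 8 of 10 pairs of the negative arm with an output gene. Some of these signs were not stable. Clock and Dbp had r = -0.045, and 0.013 as deviations from the genotype means. Arntl and Tef had r = -0.43, and 0.38 without Tg replicate 4 and WT replicate 1. Arntl with Dbp and Clock with Tef stayed negative in these settings. Without Tg replicate 2 and WT replicate 2, the r of Clock was 0.41 with Per1, 0.26 with Per2 and 0.066 with Per3. Without Tg replicate 4 and WT replicate 1, the r of Arntl was 0.24 with Per1 and 0.028 with Per3. In that set Arntl stayed negative with Nr1d1 (-0.48) and Nr1d2 (-0.072). Without the 2 arrays farthest from its median, Per1 had r = -0.13 with Tef, -0.015 with Nr1d1 and -0.15 with Nr1d2. Nr1d2 and Tef had r = -0.10 without Tg replicate 4 and WT replicate 2. Dbp and Per3 had r = -0.13 without Tg replicates 4 and 5. The other positive pairs within the negative arm, or of it with an output gene, stayed positive in this setting. After adjustment 0 of the 36 pairs passed by r. Arrays share their RNA source and tissue content across genes, so pairs are not independent of each other.

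**Figure D3:**
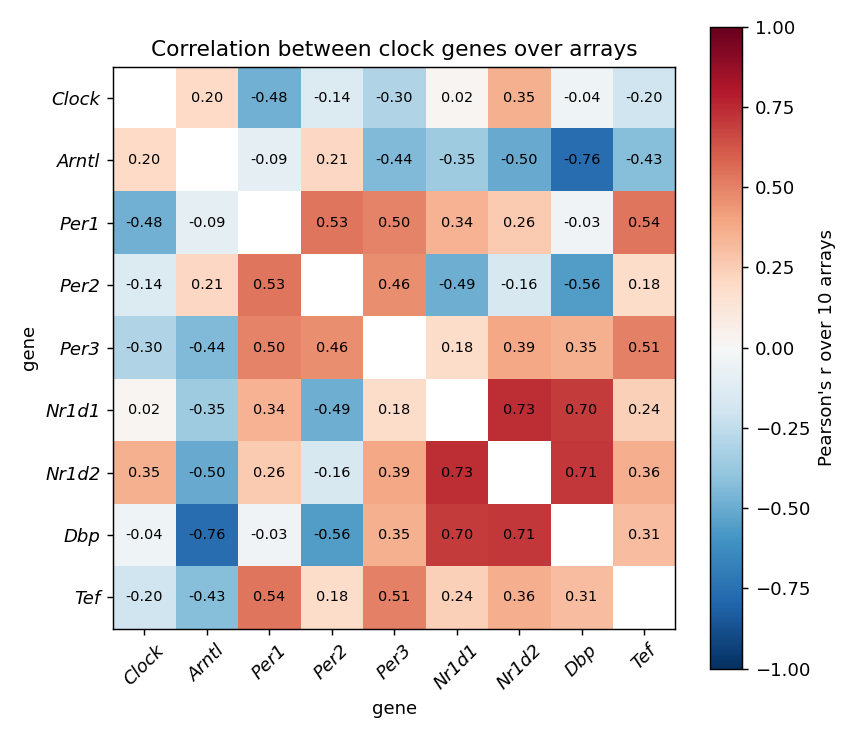
Pearson's r over the 10 arrays for each pair of the 9 measured clock genes, on a scale from -1 (blue) to 1 (red). Arntl with Dbp is the most negative pair (-0.76), and Nr1d1, Nr1d2 and Dbp form the most positive block (0.70 to 0.73).

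Each mouse also carries a serial number in the labels, from 1388 to 1399, whose meaning the labels do not state. The numbers of the genotypes are interleaved, with a mean of 1393.4 in Tg and 1393.8 in WT. After the values were seen, each probe set was fitted on genotype and serial number together, and the change from the lowest to the highest number was read. The fitted change of Dbp was -0.25 log2 units (95% interval -0.43 to -0.08) and that of Arntl was 0.16 (0.03 to 0.30), and for both the limma adjusted p was 0.9998. These were the members with an unadjusted p under 0.05. The intervals of the other 7 included 0, among them Per2 at 0.20 (-0.14 to 0.53), Nr1d1 at -0.12 (-0.40 to 0.16) and Per3 at -0.05 (-0.20 to 0.09). The change of Per2 was 0.039 without Tg replicate 5, that of Nr1d1 was -0.058 without WT replicate 5, and that of Per3 was -0.026 without Tg replicate 2. The results for Dbp and Arntl also hung on single arrays. The change of Dbp was -0.21 (-0.42 to 0.0039) without Tg replicate 5. That of Arntl was 0.12 (-0.03 to 0.27) without WT replicate 1, and its interval also included 0 without Tg replicate 4 or WT replicate 5. By limma 0 of all probe sets passed after adjustment, 1.83% had an unadjusted p under 0.05 with a lower value and 1.69% with a higher value. So 2 of 9 members stand beside a background of 3.52% in either direction.

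The 3 arrays with the highest serial numbers were Tg replicate 4, WT replicate 5 and Tg replicate 5. They held the 3 lowest of the 10 values for Dbp (9.98 to 10.17, against 10.21 to 10.39 on the other 7 arrays) and for Nr1d1 (11.52 to 11.60, against 11.69 to 11.93). They held the 3 highest values for Arntl, 9.09 to 9.17 against 8.88 to 9.05. Among all probe sets, 3.06% had their 3 lowest values and 1.43% their 3 highest on these arrays, a split that was chosen after the values were seen and has no test. Of the 16 further clock genes and 13 output genes with a value, Ciart, Usp2 and Cirbp also had their lowest 3 values there. Tsc22d3, a glucocorticoid-induced gene, had its highest 3 there. The rest of these lists, Sgk1 and Fkbp5 among them, had neither their 3 lowest nor their 3 highest values there. Most members did not share this order: Clock, Per1, Per2, Per3, Nr1d2 and Tef had neither their 3 lowest nor their 3 highest values on these arrays. For Per3, WT replicate 5 read 9.43, as high as the other WT arrays, and the lowest value was Tg replicate 3.

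**Figure D4:**
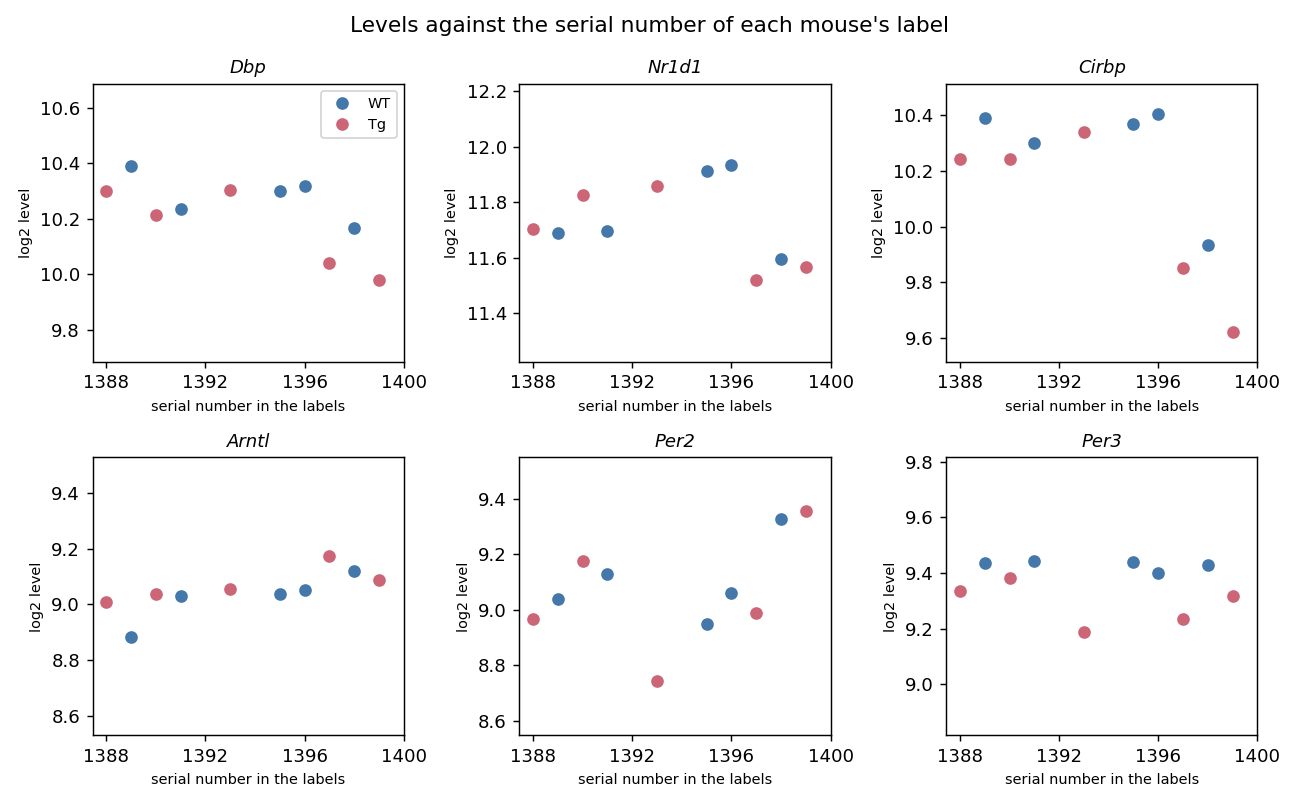
Log2 level of 6 genes against the serial number in the labels (WT blue, Tg red, 1 point per mouse, each panel spanning 1 log2 unit). The 3 highest numbers hold the lowest Dbp, Nr1d1 and Cirbp and the highest Arntl values in both genotypes. Per2 and Per3 do not share this order, and Per3 is lower in Tg along the whole range.

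With the serial number as a covariate, the genotype difference of Per3 was -0.14 (-0.24 to -0.04) and that of Dbp was -0.12 (-0.24 to -0.0050). Arntl differed by 0.05 (-0.04 to 0.15) and Nr1d1 by -0.08 (-0.27 to 0.11) in that fit, and 0 members had a limma adjusted p under 0.05. The slopes along the serial number were also compared between genotypes, and the member with the lowest p was Nr1d2 (limma adjusted p = 0.689). The hour of sampling, the order of dissection and the state of the mice are not in the labels, so their part in these values was not tested.

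Genes whose deviations from the genotype means most resembled those of Dbp and Arntl were read among 12900 genes in the upper 60% of brightness. For Dbp these were Cmtm6 (r = 0.95), Slc25a16 (0.95), Blm (0.94), Pak7 (0.94) and Cirbp (0.94). Cirbp is among the rhythmic output genes listed above, and its per-array values were 10.24, 10.24, 10.34, 9.85 and 9.62 in Tg and 10.39, 10.30, 10.37, 10.41 and 9.93 in WT. Rbm3, its cold-inducible relative, had rank 20 (r = 0.90), Usp2, a rhythmic deubiquitinase, rank 100 (0.84), and Ciart rank 512 (0.71). Not all clock genes looked up in this way followed Dbp: Hlf had r = -0.36 (rank 10594) and Nfil3 -0.63 (rank 12240). At the other end, the synaptic gene Homer1 (r = -0.91) and the endoplasmic reticulum chaperone Hspa5 (-0.92) moved against Dbp, and both were singled out after their values were seen. For Arntl the nearest were Sox11 (0.93), Mllt1 (0.92), Thbd (0.91), Gpt2 (0.89) and Vxn (0.88). These r values describe 10 arrays and were picked as the highest of many, so no test was made.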

How the data were processed

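Total RNA from each brain was isolated with TRIzol, cleaned on RNeasy columns and labelled with biotin, per the labels' protocols. The authors deposited log2 values per probe set, and the submitters' processing notes name Affymetrix Expression Console 1.1.2 as the software; for its settings and the genome build, the sources used here say nothing. Array brightness can understate true ratios, and the number of arrays limits the precision.

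The 6612 platform control rows were left out and 28944 probe sets were tested. Platform annotation gave 1 gene for 21789 probe sets, several for 1621 and none here for 5534. Symbols were updated through Entrez identifiers (21698 matched GRCm38.p6, 91 kept theirs), and the brightest probe set stood for a gene. Glo1 and Ciart had 2 probe sets each and Rbm3 had 3, and the values given for them are those of the brightest alone. Tg and WT were compared with limma 3.58.1 in R 4.3.3 (lmFit, eBayes, no covariates, threshold 0.05 after Benjamini-Hochberg adjustment), and single genes with two-sided exact permutation tests. Correlations used 100000 permutations, or exact enumeration below 10 arrays. The fits were tested on simulated data. Same-numbered Tg and WT arrays stand next to each other in the order of serial numbers, and the main fit used no pairing. The correlation of same-numbered deviations ranged from -0.47 to 0.45. Tg replicates 2 and 3 correlated best with the WT array of their own number. These correlations do not settle whether the arrays were paired. The design also counted the pairs with Npas2, so 36 pairs were computed rather than all planned ones. Alternatives were array weights, a trended robust variance, the mean over probe sets, quantile normalization, median centring, a brightness filter, marker and serial number covariates, the replicate block and each array left out. The members and lists were chosen with earlier results of these data known. Named were all members, the gene of lowest p of each further list, the 5 genes nearest to Arntl and to Dbp, and the later choices marked as such. Cry1, Cry2, Fkbp5, Hlf, Nfil3, Rbm3, Sgk1, Tsc22d3 and Usp2 were named outside this rule.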

Additional observations from a re-analysis of the deposited data

Results flagged for a closer look

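Within the 5 arrays of a genotype, 5 of the 38 groups of values checked held an array far from the others, and chance alone marks about 1 group in 20. Clock was lowest on Tg replicate 2 (10.40, against 10.57 to 10.62 on the other Tg arrays) and on WT replicate 2 (10.28, against 10.53 to 10.63), the arrays with bright pituitary markers, of which WT replicate 2 also had dim cerebellar markers. The part of the pituitary in the Clock level was not tested, and the genotype difference of Clock was -0.014 with the cerebellar mean as a covariate. Per3 was lowest among WT arrays on WT replicate 4 (9.40, against 9.43 to 9.44), a gap that stands out because the other values lie so close. Arntl2 was lowest on Tg replicate 3 (8.09, against 8.27 to 8.31). Cirbp was lowest among WT arrays on WT replicate 5 (9.93, against 10.30 to 10.41).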

How the results depend on the processing

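Under 20 alternatives 0 clock members passed, and 7 to 11 probe sets passed in all. Of 178 member differences under these alternatives 173 kept their direction. Clock (0.066 at most with a replicate left out) turned to -0.0096 with array weights, -0.014 with the cerebellar marker mean as a covariate and -0.037 without WT replicate 2. Per2 turned to 0.022 without Tg replicate 3 and 0.0022 without WT replicate 5. Per3 kept its direction in all 20, between -0.16 and -0.11, with limma adjusted p values from 0.407 up. With single arrays left out the positive arm ranged from 0.0060 to 0.061, the negative arm from -0.11 to -0.047 and the output genes from -0.11 to -0.055. Under a block on the replicate number, whose correlations do not support pairing, 11 probe sets and 0 members passed, and Dbp had an unadjusted p of 0.0662. Along the serial number 0 probe sets passed in 15 alternatives chosen after seeing the data. With replicates left out Per1 reached 0.078 and Tef -0.061 at the other end. Per1 turned to -0.0064 with quantile normalization, -0.064 without Tg replicate 1, -0.045 without Tg replicate 5 and -0.029 without WT replicate 1, and Tef to 0.0093 without Tg replicate 4. Among named pairs, leaving out the 2 arrays farthest from the median turned r to 0.028 for Arntl and Per3, -0.13 for Dbp and Per3 and -0.23 for Dbp and Tef. Deviations from the genotype means gave -0.047 for Dbp and Per3. The cause of these turns was not tested. Arntl and Per2 were not among the upper 30% of probe sets, so that alternative has no value for them or for their arms.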
